A study of Mus musculus with 15 samples.

Results

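The interferon response genes described here are 39 mouse genes of type I interferon production, signaling and response. They comprise 4 receptors and kinases, 6 transcription factors, 5 sensors of foreign nucleic acid, 21 antiviral effectors, 2 negative regulators and 1 chemokine, and they were taken as a list of names, not by a threshold on measured values although earlier results of these data were known, out of 49550 RefSeq genes on chromosomes 1 to 19 and X. The locus of each gene is its RefSeq span on GRCm38.p6 plus 5 kb on each side, and the question was which loci carried marks of active chromatin, which carried the repressive mark H3K27me3, and which carried none. All 39 genes were found in RefSeq, 37 of them as protein-coding genes, while Mx1 and Mx2 are listed as transcribed pseudogenes. The comparison set is the 21627 protein-coding genes on the same chromosomes.

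All libraries came from EL4, an established murine T cell lymphoma line labelled with the strain C57BL/6N, which was kept in RPMI 1640 with serum and for which no interferon or other stimulus is named. The study has 15 samples, of which 12 were used here: ChIP-seq of H3K4me3, H3K9ac, H3K27ac, H3K27me3 and H3K36me2 and ATAC-seq, a transposase assay of open chromatin, with 2 replicates each. The study calls its ATAC-seq replicates technical. After giving its ChIP-seq and ATAC-seq peak numbers, it states that they merge 2 technical replicates. The spread between replicates therefore does not cover other cultures, and 1 line in 1 condition is a limited model of T cells. The deposited lists give the position of every called interval but neither a height nor a read count, so depth is unknown and no test across samples was possible. As a check of the label, 10 of 10 T lineage markers had H3K4me3 within 5 kb in both replicates (protein-coding genes 54.4%). H3K27me3 was called at 0 of these 10 (genes 20.6%). H3K4me3 was also present at 2 of 6 B lineage markers (Cd79a and Pax5), at 3 of 6 myeloid markers (Lyz2, Itgam and Spi1) and at 0 of 3 erythroid markers. The myeloid share is close to that of genes. H3K27me3 was called at 3 of 6 B lineage markers (Pax5, Ebf1 and Ms4a1), 1 of 6 myeloid markers (Csf1r) and 1 of 3 erythroid markers (Hba-a1).

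Type I interferons bind a receptor made of IFNAR1 and IFNAR2, whose kinases JAK1 and TYK2 phosphorylate STAT proteins. STAT2 joins IRF9 in a complex that binds the interferon-stimulated response element (ISRE) in front of its target genes, most of which encode antiviral proteins. H3K4me3, H3K9ac and H3K27ac are typical of active promoters, H3K27me3 is laid down by Polycomb at repressed genes, and H3K36me2 usually fills gene bodies and the space between genes.

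The ISRE core was read here as GAAA, any 2 bases and GAAA on either strand. The DNA in front of the starts is shown first because 15 of the 31 members with a RefSeq promoter entry held the core. At Ddx58, Eif2ak2 and Ifih1, which are not shown, the only match lay just after the start. Each stretch is 5′ to 3′ on the strand of the gene, from RefSeq on GRCm38.p6, and ends before the annotated start. Capitals mark the ISRE core, which appears as TTTC repeats where the match is on the opposite strand. Matches overlap at Isg15 and Socs1. The 8 genes were chosen to span the range from no interval over the match to intervals in 10 libraries.
Ifit3 (chr19:34583353-34583436, plus strand): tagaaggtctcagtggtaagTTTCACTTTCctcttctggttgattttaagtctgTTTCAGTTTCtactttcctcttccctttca
Ifit1 (chr19:34640765-34640833, plus strand): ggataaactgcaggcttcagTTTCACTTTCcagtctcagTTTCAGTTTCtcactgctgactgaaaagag
Cxcl10 (chr5:92349073-92349122, minus strand): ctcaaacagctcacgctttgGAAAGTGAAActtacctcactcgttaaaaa
Isg15 (chr4:156200855-156200916, minus strand): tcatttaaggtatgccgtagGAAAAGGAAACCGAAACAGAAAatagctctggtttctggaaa
Gbp2 (chr3:142620584-142620633, plus strand): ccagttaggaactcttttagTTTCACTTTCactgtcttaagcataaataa
Rsad2 (chr12:26456543-26456592, minus strand): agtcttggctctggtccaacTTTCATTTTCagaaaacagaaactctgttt
Socs1 (chr16:10785584-10785639, minus strand): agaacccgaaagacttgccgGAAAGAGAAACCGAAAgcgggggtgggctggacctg
Oas3 (chr5:120777705-120777754, minus strand): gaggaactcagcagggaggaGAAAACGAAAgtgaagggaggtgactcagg

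For comparison, the 60 bases before the starts of Irf3 and Jak1 are shown, a pair of genes without an ISRE core in the promoter entry that stood at opposite ends of the range of marks. Capitals mark the SP1 box GGGCGG.
Irf3 (chr7:44997588-44997647, plus strand): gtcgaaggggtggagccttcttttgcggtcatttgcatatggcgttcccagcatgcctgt
Jak1 (chr4:101265224-101265283, minus strand): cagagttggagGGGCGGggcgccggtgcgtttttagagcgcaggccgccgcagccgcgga

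Most interferon response loci carried marks of active chromatin in these unstimulated cells. H3K4me3 was called in both replicates at 35 of 39 loci (89.7%) compared to 54.4% of protein-coding genes. H3K9ac was called at 33 loci (84.6%, genes 53.1%) and H3K27ac at 34 (87.2%, genes 54.2%). ATAC-seq intervals were called at 28 loci (71.8%, genes 49.9%), but with intervals of at least 500 bp alone only 11 of 39 members were called and 29.3% of genes, so that the members no longer exceeded the genes. H3K27me3 was rarer at the members, with 4 loci (10.3%) compared to 20.6% of genes. H3K36me2 was called at 27 loci (69.2%, genes 49.8%). With all intervals, each of these differences from all genes was larger than the difference between replicates, in which H3K4me3 was found at 35 and 35 loci, H3K9ac at 34 and 33, H3K27ac at 35 and 34, ATAC-seq at 30 and 30, H3K27me3 at 6 and 4, and H3K36me2 at 30 and 28. The windows of the members were of ordinary length, with a median of 25872 bp compared to 27330 bp for genes.

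**Figure D1:**
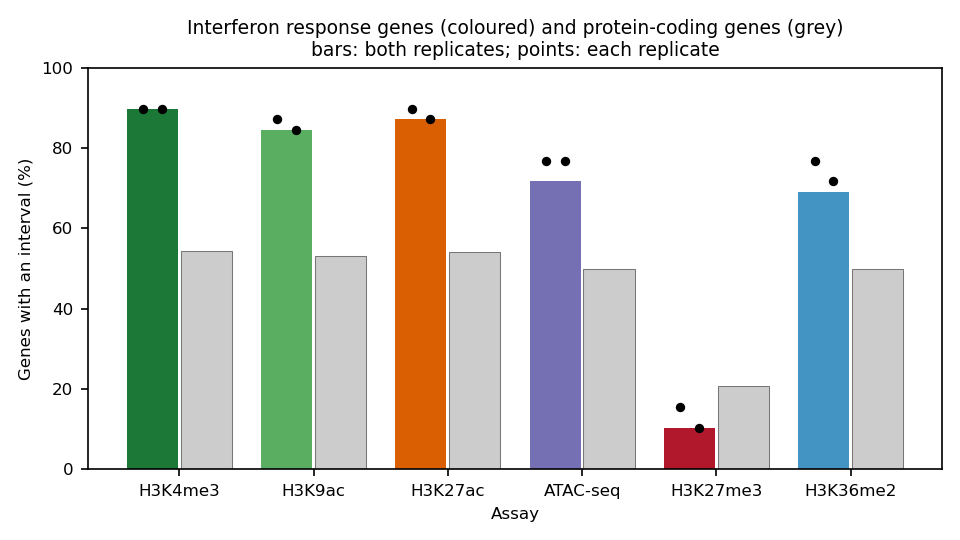
Share of genes with a called interval within 5 kb (y axis, %) for each of 6 assays (x axis). Coloured bars are the 39 interferon response genes and grey bars the 21627 protein-coding genes, both counted where both replicates have an interval, and black points are the members in each replicate. The members lie above the genes for H3K4me3 (89.7% compared to 54.4%) and below them for H3K27me3 (10.3% compared to 20.6%).

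The loci fell into 4 classes. An active mark or ATAC-seq without H3K27me3 was found at 33 loci (84.6%, genes 51.1%). H3K27me3 together with an active mark was found at 3 loci, Ifit1, Ifih1 and Rtp4 (7.69%, genes 5.71%). This share is close to that of all genes. The H3K27me3 intervals of Ifit1 in the 2 replicates shared no base pair in its window. With shared base pairs, the gene span alone or 2 kb on each side, Ifit1 left this class. It then held 2 members (genes 5.20%, 3.31% and 4.15%). Oas2 was the 1 locus with H3K27me3 and no active interval in both replicates (2.56%, genes 14.8%). Irf3 and Ifit3 had neither kind of interval (5.13%, genes 28.4%), although both had H3K36me2. Loci with all 4 of H3K4me3, H3K9ac, H3K27ac and ATAC-seq numbered 27 (69.2%, genes 48.0%), and 20 loci (51.3%, genes 35.6%) had an interval in each of the 10 active-mark, ATAC-seq and H3K36me2 libraries and none in the H3K27me3 libraries. No member lacked an interval in all 12 libraries, as 17.9% of genes did. H3K27me3 and H3K36me2 were called together in both replicates at 0 of 39 members (genes 3.80%). Only 4 members had H3K27me3 in both replicates, too few to compare with genes. In replicate 1, Mx1 and Usp18 had both marks in their windows. H3K36me2 was present at 27 of the 35 members not called for H3K27me3. Among all genes, H3K36me2 was called at 18.5% of those with H3K27me3 and at 57.9% of the others.

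**Figure D2:**
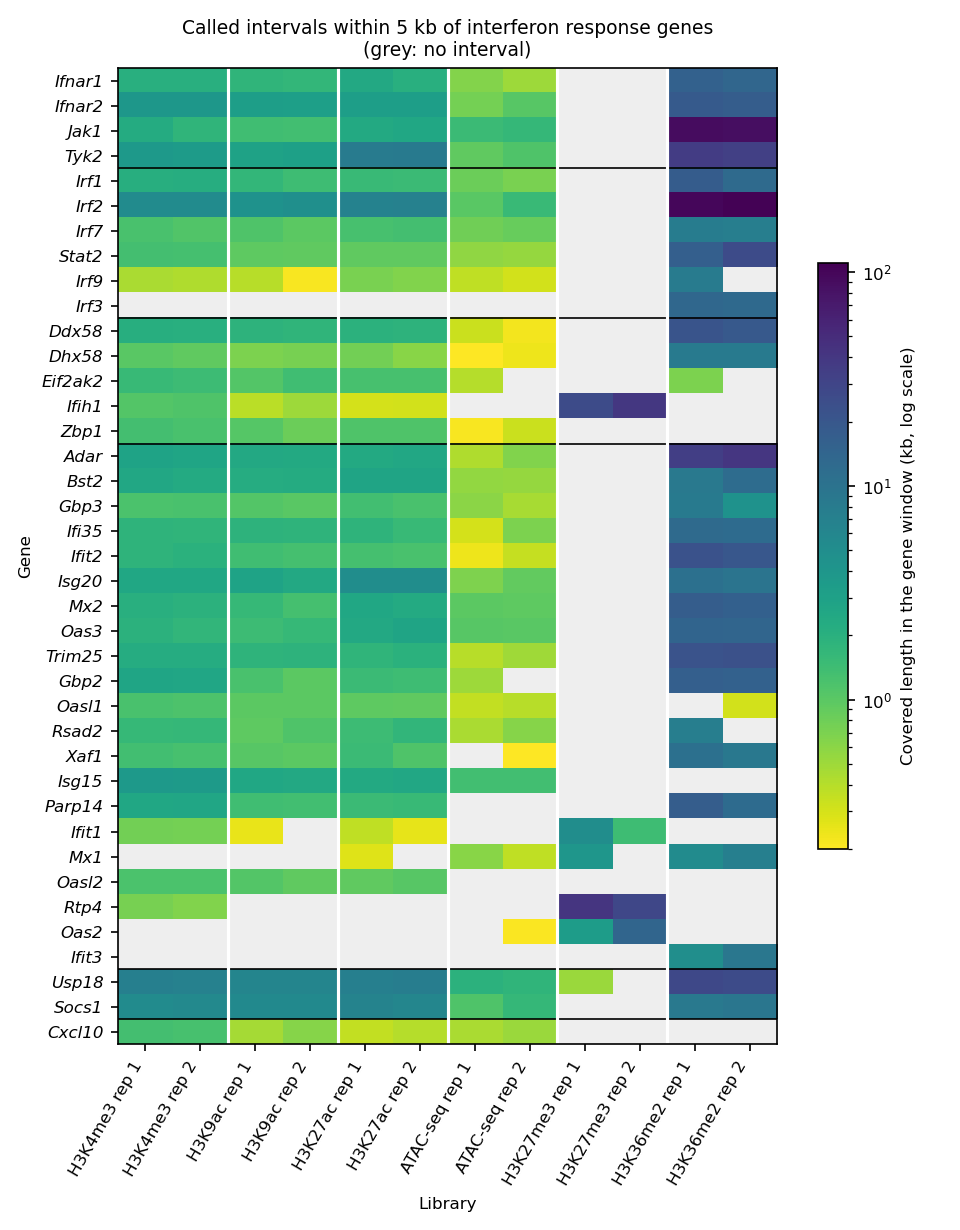
Covered length within each gene's window (colour, kb on a log scale) for the 39 genes (y axis, with lines between receptors and kinases, transcription factors, sensors, effectors, negative regulators and the chemokine) in the 12 libraries (x axis). Grey cells have no interval. Rows of Irf3 and Ifit3 are coloured for H3K36me2 only, and H3K27me3 is coloured in both replicates for Ifih1, Ifit1, Rtp4 and Oas2.

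The receptors and kinases were marked alike. Ifnar1 and Ifnar2, which encode the receptor chains, and Jak1 and Tyk2, which encode the kinases bound to them, had intervals of all 4 active assays and H3K36me2 in every replicate and H3K27me3 in none. The H3K4me3 interval over the start measured 2060 and 2058 bp at Ifnar1, 2290 and 2284 bp at Ifnar2, 1945 and 1787 bp at Jak1, and 1500 and 1573 bp at Tyk2, in replicates 1 and 2. These values lie on both sides of the median over all genes with such an interval, 1971 and 1953 bp. ATAC-seq intervals covered all 4 starts, with widths from 316 bp at Ifnar2 in replicate 1 to 937 bp at Jak1 in replicate 2. Tyk2 stood out by its H3K27ac, which covered 7939 and 8207 bp of its window, the most of any member, and by its H3K36me2, which covered 95.2 and 89.8% of the window and ran over the start in both replicates.

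Of the 6 transcription factor genes, 5 had all 4 active assays in both replicates. These were Irf1 and Irf2, an activator and a mostly repressive relative, Irf7, which amplifies interferon production, and Irf9 and Stat2, which are parts of the ISRE-binding complex. Irf2 had H3K4me3 over 4478 and 4425 bp at its start and H3K36me2 over 84.5 and 89.3% of its window. Irf9, which has 2 starts in RefSeq, had only short active intervals. Its H3K4me3 measured 450 and 419 bp and lay between the starts, ending 26 and 34 bp before the downstream one, while the ATAC-seq interval of 365 and 308 bp covered the upstream one. H3K36me2 at Irf9 was called in replicate 1 only.

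Irf3, the factor that is phosphorylated when sensors meet viral RNA or DNA, was the exception. No H3K4me3, H3K9ac, H3K27ac, ATAC-seq or H3K27me3 interval lay within 5 kb of its span (chr7:44997648-45002848). The nearest H3K4me3 interval was 12.2 and 12.3 kb away and the nearest ATAC-seq interval 13.1 and 13.0 kb away. H3K36me2 covered 88.2 and 84.2% of the window and was interrupted at the start, where the gap in the interval measured 1801 and 2401 bp. Bcl2l12 and Scaf1 share this window, so the absence of active intervals holds for the sequence around them within it too. The Irf3 promoter entry held 18 CG dinucleotides and an SP1 box, compared to a median of 7.00 CG over 32619 RefSeq promoters. Among protein-coding genes the median was 23.0 CG for those with H3K4me3 over the start and 5.00 for those without.

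The 5 sensor genes had H3K4me3, H3K9ac and H3K27ac in both replicates, but ATAC-seq and H3K36me2 varied. Ddx58 and Dhx58, which encode the RNA sensors RIG-I and LGP2, had all of them. Zbp1, a sensor of left-handed nucleic acid, had ATAC-seq over 215 and 331 bp of its window and no H3K36me2. Eif2ak2, which encodes the RNA-activated kinase PKR, had ATAC-seq and H3K36me2 in replicate 1 only.

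Ifih1, which encodes the RNA sensor MDA5, was the member with the most H3K27me3 relative to its window. H3K27me3 covered 25977 and 39830 bp of the window around chr2:62595618-62646255, which is 42.8 and 65.7% of it. At the start, an H3K4me3 interval of 1069 and 1142 bp overlapped H3K27me3 by 888 and 1142 bp, and H3K9ac intervals of 380 and 509 bp lay within the H3K4me3. Ifih1 was the only member of the 31 with a known start at which H3K27me3 covered that start in both replicates (3.23%, genes 5.85%). No ATAC-seq interval lay nearer than 204.4 kb in either replicate and no H3K36me2 interval nearer than 199.4 kb. Overlap of these marks in the lists cannot tell cells that carry both marks on the same DNA apart from cells that carry 1 each.

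The antiviral effectors were not marked alike. Of 21 genes, 18 had H3K4me3, 16 had H3K9ac, 17 had H3K27ac, 13 had ATAC-seq, 3 had H3K27me3 and 14 had H3K36me2 in both replicates. Full sets of the 4 active assays with H3K36me2 in every replicate were found at Adar (an RNA-editing enzyme), Bst2 (tetherin, which holds virus particles at the cell surface), Gbp3 (a guanylate-binding protein), Isg20 (an exonuclease), Oas3 (a synthetase of 2-5A), Trim25 (a ubiquitin ligase for RIG-I), Ifit2, Ifi35 and Mx2. The H3K4me3 interval over the start was 2504 and 2322 bp wide at Bst2 and 2589 and 2586 bp at Isg20, above the median of all genes. At Oas3 it was 1092 and 943 bp wide and at Gbp3 1182 and 1217 bp, below that median.

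Some effectors had H3K4me3 but no ATAC-seq called in both replicates. There were 8 such members (20.5%, genes 5.83%): the effectors Ifit1, Oasl2, Gbp2, Parp14, Xaf1 and Rtp4 and the sensors Ifih1 and Eif2ak2. These shares also depend on how many loci have H3K4me3. Among loci with H3K4me3, they were 8 of 35 members and 1261 of 11767 protein-coding genes. Gbp2 and Eif2ak2 had ATAC-seq in replicate 1 only and Xaf1, a pro-apoptotic factor, in replicate 2 only. Gbp2 had H3K4me3 of 2678 and 2656 bp over its start, wider than at most members. Within it lay ATAC-seq intervals of 299 and 200 bp in replicate 1 and none in replicate 2. Oasl2 had H3K4me3 of 1207 and 1182 bp and H3K27ac of 938 and 1022 bp over its start, with the nearest ATAC-seq interval 29.8 kb away in both replicates and no H3K36me2 in its window.

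Isg15, a ubiquitin-like protein attached to other proteins in infected cells, had 3 H3K4me3 intervals in its window in both replicates, and 1 of them covered its start with 936 and 912 bp. The other two measured 1296 and 1397 bp in replicate 1 and 1270 and 1344 bp in replicate 2, in a window that also holds part of the genes Agrn and Perm1. An ATAC-seq interval of 209 bp covered the start of Isg15 in replicate 1 and none did in replicate 2. The ATAC-seq call of Isg15 in replicate 2 came from intervals of 999 and 362 bp outside the gene, the nearest 1.3 kb from its span. Rsad2, which encodes viperin, had H3K4me3 of 1160 and 1120 bp and ATAC-seq of 441 and 636 bp over its start, with H3K36me2 in replicate 1 only.

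The 3 Ifit genes on chromosome 19 differed from each other although Ifit1 lies only 64.4 kb from Ifit2. These genes encode proteins that bind viral RNA. Ifit2 had all active assays, with H3K4me3 of 1349 and 1346 bp over a start. Ifit3, 6.6 kb from Ifit2, had none, and its nearest H3K4me3 interval was 31009 and 30880 bp away. H3K27ac came closest to Ifit3, at 7.9 and 8.0 kb. The windows of both genes overlap by 3416 bp and share a stretch of H3K36me2, which covered 30.7 and 56.6% of the Ifit3 window. Ifit1 had a narrow H3K4me3 interval of 769 and 751 bp over its start, which reached 157 and 163 bp into the gene, and H3K27ac of 367 and 252 bp before the start. H3K9ac at Ifit1 measured 248 bp in replicate 1 and was absent in replicate 2, and ATAC-seq was 90.1 and 90.0 kb away. The H3K27me3 of Ifit1 did not overlap its H3K4me3. It began 4112 and 12712 bp after the start and filled 26.1 and 7.37% of the window, and in replicate 2 it lay entirely outside the gene, 3.6 kb past its end.

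Oas2, a synthetase of 2-5A like its neighbour Oas3, carried H3K27me3 over 3399 and 14199 bp (11.5 and 48.0% of the window around chr5:120730333-120749886). The extent of this domain was thus poorly defined, with the longer value in replicate 2. An ATAC-seq interval of 209 bp was called at Oas2 in replicate 2 only, and the nearest H3K4me3 was 25.2 kb away in both replicates. The span of Oas3, which had all active marks, lies 3.2 kb from that of Oas2 with its start at the far end, and the 6789 bp common to both windows held no interval shared by them.

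Rtp4, a chaperone of receptor transport that is induced by interferon, had H3K27me3 over 41791 and 28417 bp, which is 40.2 and 27.3% of its window. Its RefSeq span is 94004 bp long (chr16:23520219-23614222). Within it stood 1 H3K4me3 interval of 730 and 653 bp, at least 17.4 and 6.4 kb from H3K27me3, without H3K9ac, H3K27ac, ATAC-seq or H3K36me2. The strand of Rtp4 is not in the promoter table, so its start was not placed.

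Some loci were called through an interval away from the gene's own start. At Oasl1, a translational brake on Irf7, the H3K4me3 interval began 18.4 and 18.5 kb after the start and 3764 and 3822 bp past the end of the gene, with the H3K9ac, H3K27ac and ATAC-seq intervals beside it, in a window that also holds 2210016L21Rik. No interval of any assay touched the Oasl1 start in either replicate. Mx1 had no H3K4me3 or H3K9ac, and its nearest H3K4me3 interval was 15.5 and 15.4 kb away. ATAC-seq intervals of 371 and 370 bp crossed the right end of the Mx1 span, within H3K36me2 of 5199 and 7199 bp, while H3K27ac (272 bp) and H3K27me3 (3999 bp) were called in replicate 1 only. Mx2, its paralog 73.2 kb away, had H3K4me3 of 2056 and 1927 bp across its left end. Another RefSeq gene lies in the window of 32 members and another protein-coding gene in that of 26, so an interval in a window need not belong to the member.

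Both negative regulators had long active intervals. Socs1 encodes an inhibitor of the JAK kinases, and Usp18 encodes the protease that removes ISG15 and blocks IFNAR2. The H3K4me3 interval over the Socs1 start measured 4662 and 4955 bp, the widest of 27 members and wider than at 97.6 and 98.3% of all genes with such an interval. H3K9ac there measured 4939 and 4307 bp, H3K27ac 5596 and 4717 bp and ATAC-seq 1145 and 947 bp. Usp18 had the longest total of H3K4me3 of any member, 7187 and 6892 bp in 3 intervals, with H3K27ac over 7152 and 7659 bp and ATAC-seq over 1894 and 1769 bp of its window. H3K27me3 touched the Usp18 window over 517 bp in replicate 1 and not in replicate 2, 2.2 kb from the nearest H3K4me3.

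Cxcl10, a chemokine that attracts activated T cells, had the narrowest H3K4me3 interval over a start, 550 and 439 bp, together with ATAC-seq of 200 and 246 bp. H3K9ac and H3K27ac were not called over its start in either replicate. Its acetylation call came from the edge of the window, where the nearest H3K9ac was 4.5 and 4.3 kb and the nearest H3K27ac 4.6 kb from the gene in both replicates. H3K27me3 was 7.0 and 7.3 kb away.

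**Figure D3:**
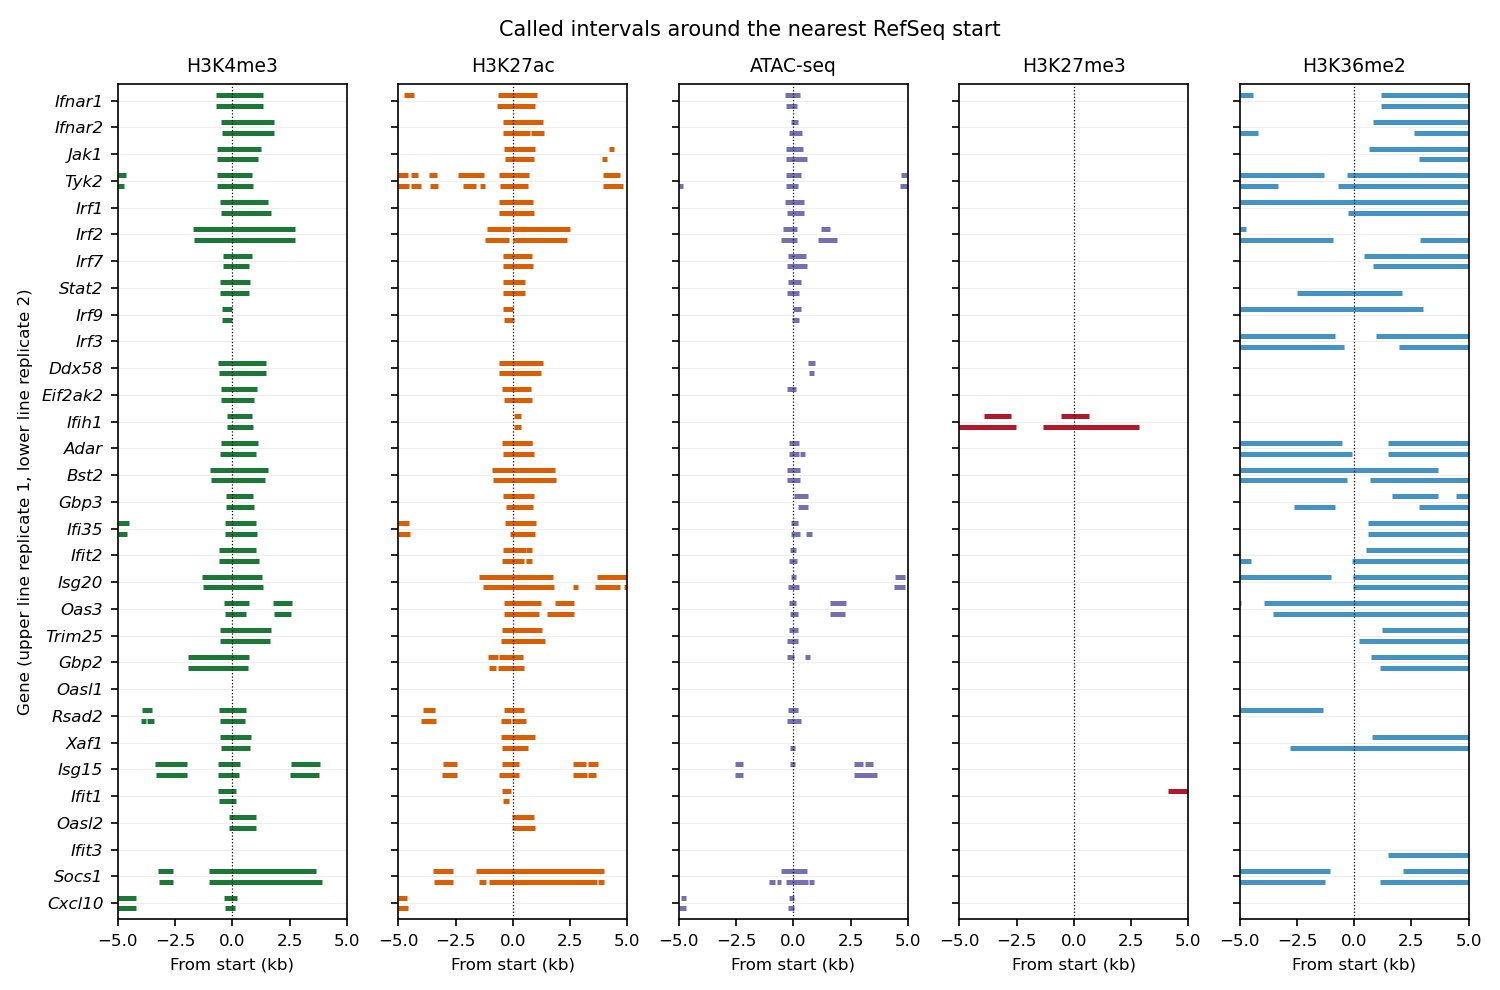
Called intervals of 5 assays within 5 kb of the nearest RefSeq start (x axis, kb, negative before the start) for the 31 genes with a promoter entry (y axis). Where a gene has several starts, each interval is placed from the start nearest to it. The upper line of each gene is replicate 1 and the lower line replicate 2, and the dotted line is the start. H3K4me3 sits over the start of 27 genes, H3K27me3 over that of Ifih1, and rows of Irf3, Ifit3 and Oasl1 are empty for H3K4me3, H3K27ac and ATAC-seq.

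At the starts themselves the same order was seen. In the window from 3 kb before to 2 kb after a start, H3K4me3 was called in both replicates at 28 of 31 members (90.3%) compared to 47.0% of 17273 protein-coding genes with a promoter entry. H3K9ac was called at 26 (83.9%, genes 46.4%), H3K27ac at 27 (87.1%, genes 46.6%) and ATAC-seq at 22 (71.0%, genes 42.5%). H3K27me3 was called at 1 (3.23%, genes 10.0%) and H3K36me2 at 16 (51.6%, genes 26.6%). Directly over a start, H3K4me3 was found at 27 members (87.1%, genes 44.6%), ATAC-seq at 19 (61.3%, genes 37.7%) and H3K36me2 at 4, Irf1, Tyk2, Isg20 and Oas3 (12.9%, genes 7.77%). Of the 22 members with a known start and H3K36me2 in the window, 18.2% had it over the start, close to the 15.4% among all genes.

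The intervals over the members' starts were in the median narrower than those of all genes, taking the widest one where a gene has several starts. The median H3K4me3 width was 1500 and 1465 bp over 27 members compared to 1971 and 1953 bp over all genes with such an interval, and 10 of the 27 members exceeded the median of the genes in each replicate. H3K27ac measured 1337 and 1250 bp (genes 1568 and 1587 bp), H3K9ac 1160 and 1142 bp (genes 1621 and 1614 bp) and ATAC-seq 411 and 520 bp (genes 599 and 652 bp). For H3K4me3, H3K9ac and H3K27ac the gap between members and genes was larger than that between replicates. For ATAC-seq the replicates of the members differed by nearly as much. Variation with the choice of genes was not tested.

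**Figure D4:**
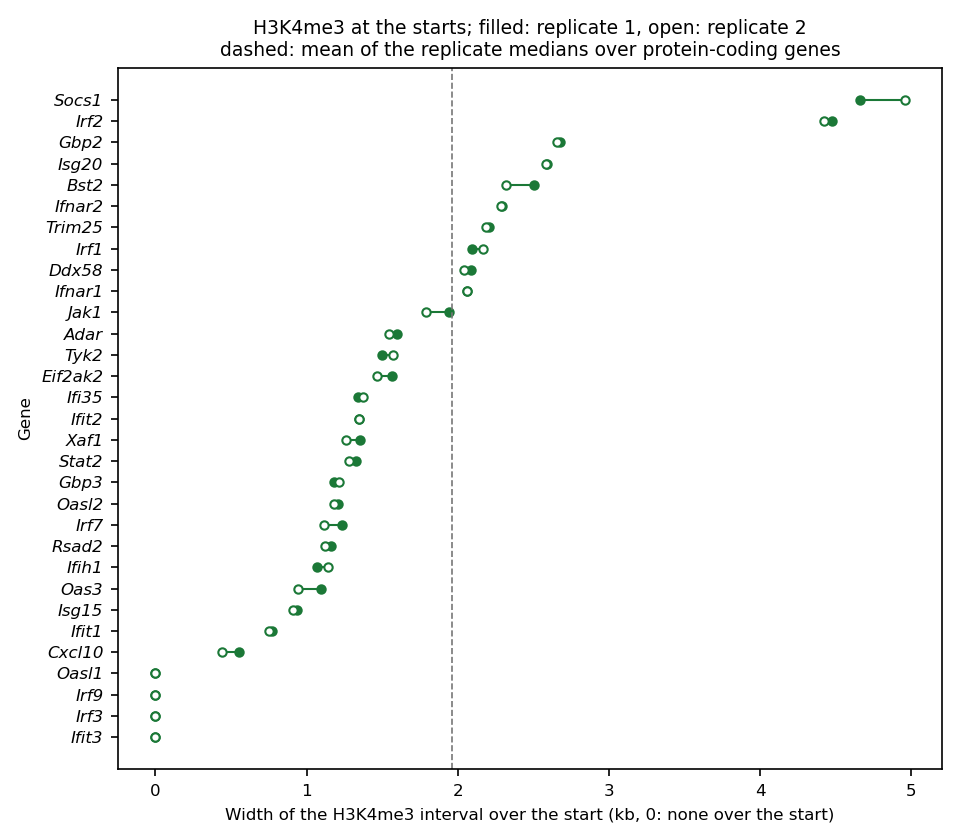
Width of the H3K4me3 interval over the start (x axis, kb, with 0 where no interval covers it) for 31 genes (y axis), with filled points for replicate 1, open points for replicate 2 and a line between them. The dashed line is the mean of the replicate medians over protein-coding genes. Socs1 and Irf2 lie far to the right, Cxcl10 is the narrowest of the covered starts, and Oasl1, Irf9, Irf3 and Ifit3 are at 0.

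H3K36me2 was the mark that filled most of the members' windows. The median member had 46.1 and 40.9% of its window covered in replicates 1 and 2, compared to 5.58 and 5.65% for the median gene. The median gene lies near the boundary between presence and absence of the mark, and over all window base pairs together the share was 44.8 and 43.5% for members and 22.4 and 22.2% for genes. H3K4me3 covered a median of 5.51 and 5.43% (genes 1.38 and 1.32%) and ATAC-seq 1.47 and 1.48% (genes 0.193 and 0.342%). The loci without H3K36me2 in either replicate were Isg15, Ifit1, Oas2, Oasl2, Ifih1, Zbp1, Cxcl10 and Rtp4, which include all 4 loci with H3K27me3. The replicates overlapped least for H3K27me3. Within the member windows the Jaccard index of replicates 1 and 2, shared over total base pairs, was 0.937 for H3K4me3, 0.663 for ATAC-seq, 0.699 for H3K36me2 and 0.385 for H3K27me3.

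**Figure D5:**
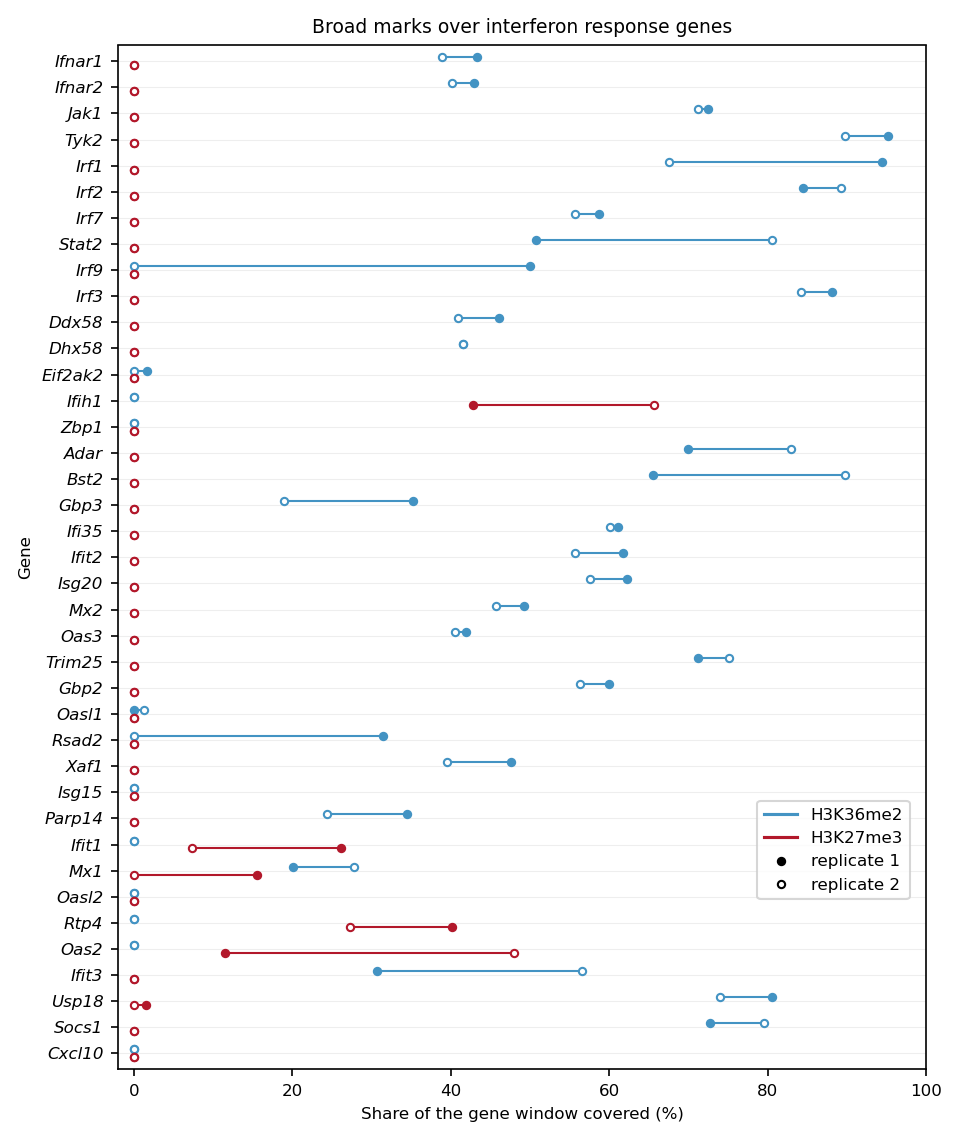
Share of the gene window covered by H3K36me2 (blue) and H3K27me3 (red) on the x axis (%) for the 39 genes on the y axis, with filled points for replicate 1, open points for replicate 2 and a line between them. H3K27me3 lies above 0 in both replicates at Ifih1 (42.8 and 65.7%), Rtp4, Oas2 and Ifit1, where H3K36me2 is at 0.

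The 31 members with a known start have 39 promoter entries, and 15 of these, each of another member, held the ISRE core compared to 3.46% of 32619 RefSeq promoters. Of these 15 members, 14 had H3K4me3 over a match in both replicates, 11 had H3K9ac, 11 had H3K27ac and 6 had ATAC-seq. Over RefSeq promoters of every gene type, not of protein-coding genes alone, 1077 genes held the core. In these a match was covered by H3K4me3 in 27.8%, by H3K9ac in 23.8%, by H3K27ac in 24.1% and by ATAC-seq in 16.7%. Of the protein-coding genes with the core, 294 had H3K4me3 over the start in both replicates and 393 did not. The same counts for the members were 14 and 1. Of the stretches shown above, the match of Oas3 lay in 10 libraries, those of Socs1 in 8, and those of Isg15, Gbp2 and Rsad2 in 7. The match of Cxcl10 lay in 3 libraries, both of H3K4me3 and replicate 2 of ATAC-seq. Both matches of Ifit1 lay in the 2 H3K4me3 libraries alone and both of Ifit3 in none, although these promoters hold the same 2 cores. A match is a run of letters and not a measured binding site.

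Members with ATAC-seq over the start in both replicates had a median of 18.0 CG dinucleotides in the promoter entry (19 members) and those without had 6.00 (12 members), compared to 24.0 and 6.00 among all genes. The ISRE core was present in 7 of the 19 and in 8 of the 12, compared to 223 of 6507 and 464 of 10766 protein-coding genes. The gamma-activated site (TTC, any 3 bases, GAA) was found in 10 of the 39 member promoters (8.34% of all promoters) and the SP1 box GGGCGG, searched on both strands, in 19 (35.9% of all promoters), which belong to 17 members. These counts describe the sequence and were not tested.

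The further genes of the pathway gave a similar picture with more unmarked loci than the members. Of 74 other genes of interferon production, signaling and response, 57 had H3K4me3 (77.0%, genes 54.4%) and 48 ATAC-seq (64.9%, genes 49.9%) in both replicates. H3K36me2 was called at 47 (63.5%, genes 49.8%) and H3K27me3 at 8 (10.8%, genes 20.6%). Neither an active interval nor H3K27me3 was found at 11 (14.9%, genes 28.4%), compared to 5.13% of the members. H3K27me3 with an active mark was found at Mb21d1, which encodes the DNA sensor cGAS, Aim2, an inflammasome sensor, Ddx60 and Iigp1. This class held 5.41% of the 74 genes, close to the 5.71% of protein-coding genes. H3K27me3 alone was found at Ifne, Oas1g and the chemokine genes Cxcl9 and Cxcl11 (5.41%, genes 14.8%). Ifnb1, Tlr3, Ifi44 and Ifi204 had no interval in any of the 12 libraries (5.41%, genes 17.9%). Of these chemokine genes and Cxcl10, H3K4me3 was thus called at Cxcl10 alone.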

How the data were processed

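The authors aligned the reads of each library with STAR (version 2.5), kept unique alignments, removed mitochondrial reads and treated duplicates with Picard. They called H3K4me3, H3K9ac, H3K27ac and ATAC-seq intervals with MACS2 and H3K27me3 and H3K36me2 intervals with Epic on bins of 200 bp, with input DNA as the ChIP-seq control. The deposited lists hold 3 columns (chromosome, start and end) per replicate, in base pairs, with neither score nor count, so the depth per sample and the precision it gives are unknown. The methods state that reads on sex chromosomes were discarded, yet all 12 lists hold intervals on chromosome X. The build is not named in the lists, and GRCm38.p6 gene positions and promoter sequences of RefSeq were used.

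Here a locus was called where an interval of each replicate overlapped the gene span plus 5 kb on each side by at least 1 bp. Starts and strands came from RefSeq promoter entries (250 bases before to 50 after the start), which 31 members had and Mx1, Mx2, Oas2, Usp18, Dhx58, Zbp1, Parp14 and Rtp4 did not. All 39 members are named. The members, roles and further lists were chosen with earlier results of these data known. No test was run, as presence in 2 replicates of 1 condition gives none, and the shares over protein-coding genes serve as background. Alternatives were other windows (0, 2 and 10 kb), an overlap of 200 bp, intervals of at least 500 bp, shared base pairs, single replicates, either replicate and all RefSeq genes. Overlap counts were tested on simulated data and checked against bedtools 2.31.1 in 12 libraries, with 0 of 21627 genes differing. Tools were Python 3.11.15, numpy 2.4.6, pandas 2.3.3 and matplotlib 3.10.9. Input DNA and RNA-seq samples were not analysed here.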

Additional observations from a re-analysis of the deposited data

How the results depend on the processing

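No paired analysis was possible because the results are counts of called loci and come from no test. Of 118 values under the settings tried, 18 moved by more than 1.5-fold or by more than the spread between replicates, or are shares over another gene set that did so. With intervals of at least 500 bp, ATAC-seq was called at 11 members in place of 28. The share of genes fell from 49.9 to 29.3%, which ends the members' excess. Loci with neither an active interval nor H3K27me3 rose from 2 to 5 (genes from 28.4 to 30.3%) by Irf9, Mx1 and Dhx58, whose intervals are short. With 10 kb on each side this class fell to 1 (genes 24.2%), since H3K27ac then reached Ifit3. With replicate 2 only, 4 members had H3K27me3 and an active mark or ATAC-seq (genes 7.83%) and 0 had H3K27me3 alone (genes 16.5%). With replicate 1 only, these classes held 5 members (genes 7.69%) and 1 member (genes 16.9%). The members changed class because Oas2 has ATAC-seq in replicate 2 and Mx1 and Usp18 have H3K27me3 in replicate 1. With an interval in either replicate these classes held 6 and 0 members (genes 9.93 and 18.4%). Both shares of genes were thus higher than the 5.71 and 14.8% found with both replicates. Within gene spans alone the median share of a window covered was 5.4% for H3K4me3 (5.47% with 5 kb), 3.89% for H3K9ac, 1.08% for ATAC-seq and 4.01% for H3K27ac. Over all RefSeq genes, which include short noncoding loci, the background was 33.4% for H3K4me3, 32.2% for H3K9ac, 33.7% for H3K27ac, 29.8% for ATAC-seq, 32.7% for active loci without H3K27me3, 3.33% for H3K27me3 with an active mark and 48.0% for neither. The remaining values, among them all 9 alternatives for H3K4me3 (33 to 35 members), stayed within 1.5-fold or the replicate spread. Without read counts, a locus with no interval may have signal below the authors' threshold.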
